A study of Mus musculus with 15 samples.

Results

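Stretches of chromatin that DNase-seq listed in whole adult mouse brain and in no other library of the series are described here. DNase-seq cuts nuclei with a nuclease and sequences the cut ends, and a peak marks DNA that is open to cutting. All 8 deposited peak lists were merged, so that touching or overlapping peaks formed 1 region. A region was brain-only when it held a brain peak and no peak of the other 7 lists. There were 10994 such regions among 59752 brain regions, a share of 18.4% (Wilson 95% interval 18.1 to 18.7), and among 237612 merged regions in the whole series. The other 48758 regions with a brain peak are called the remaining brain regions.

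The brain library came from whole brain of adult C57BL/6J mice, and hearts, kidneys and livers of adult mice of that strain gave 1 library each. All 4 tissues were flash frozen and pulverized. The other lists came from primary skin fibroblasts grown from adult mice of that strain, from cultured C57BL/6J embryonic stem (ES) cells, and from preSertoli cells of fetal testes at embryonic stages E13.5 and E15.5. PreSertoli cells, the somatic cells that enclose the germ cells of the testis, were sorted from F1 embryos of C57BL/6J and CD-1 parents, male and heterozygous for a Sox9-ECFP reporter. The brain and 5 other cell types were digested by the standard DNase I protocol, whereas the preSertoli nuclei were digested by their own nucleases. Each list is 1 library, so no spread between samples can be given. Intervals cover counting error over regions only, and neighbouring regions are not independent. The number of reads behind each list is unknown, and the labels give no number or sex of the adult mice. The series also has 3 RNA-seq libraries of preSertoli cells, not used here.

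Open chromatin falls into promoters and insulator sites, which most cell types share, and enhancers, which are often open in few cell types. Adult brain mixes neurons of many kinds with astrocytes, oligodendrocytes, microglia and vessel cells. In such a tissue an element that is open in a rare cell type gives a small share of the cut ends, and a low peak in many cells cannot be told apart from a high peak in few. No gene annotation of the files' genome build, mm9, was used. The regions are therefore given by position, the brain label was not checked against marker genes, and no gene is assigned to any region. A missing peak does not show that chromatin was closed.

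Brain-only regions were weak among brain peaks. Strength is the authors' signal height per peak, which is on a scale of its own in each list, and is given mainly as a percentile among the 63330 brain peaks, with a joined region taking its strongest peak. Brain-only regions had a median signal height of 0.0499 (quartiles 0.0426 and 0.0665), against 0.0889 (quartiles 0.0539 and 0.178) in the remaining brain regions. Their median percentile was 27.3 (95% interval 26.7 to 27.9), against 58.7 (58.3 to 59.1) in the remaining brain regions, a difference of -31.4 percentile points. The difference was below 0 on each of the 20 chromosomes taken alone, from -35.6 points on chromosome 11 to -27.9 points on chromosome 12. Of the brain-only regions, 2186 (19.9%, interval 19.1 to 20.6) lay above the median of the brain list, against 59.0% of the remaining brain regions and a background of 51.8% over all brain regions.

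The share of brain regions that were brain-only was lower at each step of strength. It was 40.2% in the lowest decile of the brain list (2192 of 5455 regions), 21.9% in the fifth decile (1318 of 6009) and 1.60% in the ninth (100 of 6247). In the top decile, with signal heights of 0.309 and above, none of 6319 regions was brain-only. The highest brain-only peak stood at the 88.9th percentile, and 7000 remaining brain regions (14.4%) were higher. The authors' score, which ends at 1000, reached that value in 4 brain-only regions and in 8483 remaining brain regions.

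Strength was higher the more other lists shared a region, but by little at first. Brain-only regions, at a median percentile of 27.3, stood close to regions shared with 1 other list (28.4, interval 27.6 to 29.1) and with 2 others (30.2). Regions shared with 3, 4, 5 and 6 other lists had medians of 33.7, 39.9, 46.2 and 56.0. The 20859 regions present in all 7 other lists had a median percentile of 82.5, and they made up 34.9% of all brain regions. They also held 6236 of the 6319 regions in the top decile. The gap between brain-only and remaining brain regions was therefore carried mostly by regions found in many or all lists. Against regions shared with 1 other list the intervals overlapped.

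**Figure D1:**
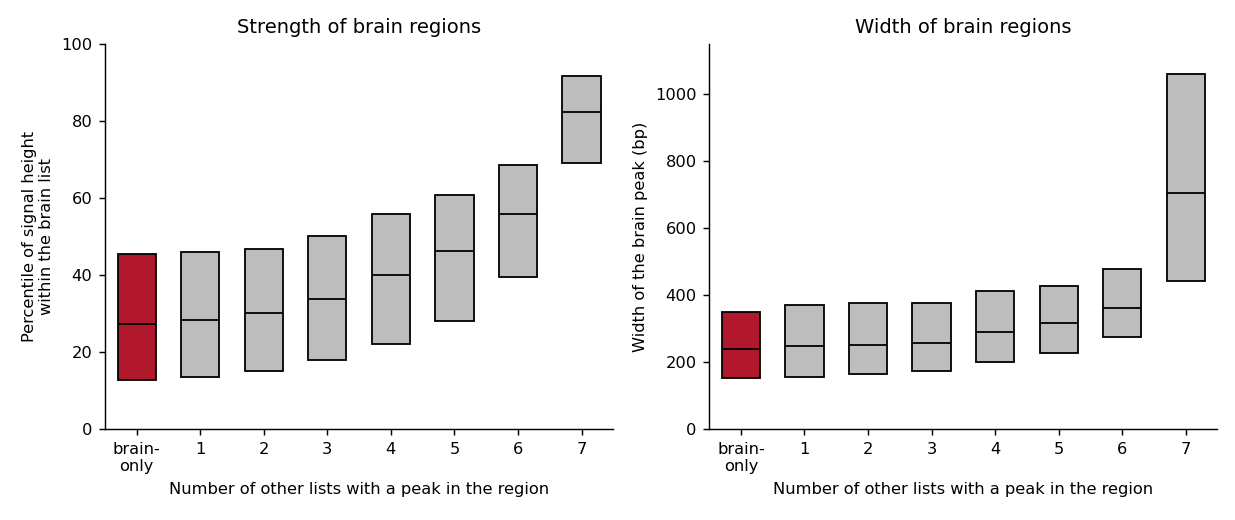
Percentile of signal height within the brain list (left) and width of the brain peak in bp (right) for brain-only regions (red) and for regions shared with 1 to 7 other lists (grey); boxes span the quartiles and lines are medians. Medians climb slowly from brain-only regions (27.3; 239 bp) and steeply at 7 other lists (82.5; 706 bp).

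The same rule was applied to each of the other lists. The brain-only share of 18.4% lay between 16.8% (E15.5 preSertoli cells) and 38.8% (ES cells), with kidney at 16.9%, heart at 19.0%, skin fibroblasts at 24.3% and liver at 26.5%. In each list the regions found there alone were weaker than the rest of that list. The difference of medians in brain (-31.4 points) lay within the span of the 7 other lists, from -39.9 in E15.5 preSertoli cells to -23.9 in liver. The share above the median of its own list, 19.9% in brain, ran from 8.89% in E15.5 and 12.3% in E13.5 preSertoli cells to 28.6% in ES cells and 31.9% in liver, with 16.6% in heart, 19.9% in kidney and 21.5% in skin fibroblasts. Brain, heart and E15.5 preSertoli cells had no region of their own in the top decile of their list. Kidney had 1, E13.5 preSertoli cells 2, skin fibroblasts 5, liver 85 and ES cells 163. With 1 library per cell type these values stand side by side with no test.

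Brain-only regions were narrow, and their width went with their strength. The width is that of the brain peak or peaks, since the merged region grows with the number of lists. The median was 239 bp (interval 236 to 243; quartiles 152 and 350), against 403 bp (401 to 406; quartiles 258 and 715) in the remaining brain regions. Of the brain-only regions 25 (0.227%) reached 1000 bp, against 6734 (13.8%) of the remaining ones. Every brain-only region held a single brain peak, whereas 3028 remaining regions (6.21%) joined several. Brain peaks that do not touch each other join only through a peak of another list, which the rule bars. This contrast is therefore built in. A wider peak has more bases that a peak of another list can touch, so the rule itself favours narrow regions.

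At matched strength the median widths were nearly equal in the weakest deciles and farther apart in stronger ones, and the direction of the difference changed along the list. In the lowest decile the median width was 96 bp in brain-only and 95 bp in remaining brain regions, and both stood at 164 bp in the second decile and 220 bp in the third. From the fourth to the eighth decile brain-only regions had the larger medians, by 8 to 49 bp. In the seventh decile the medians were 454 bp in 699 brain-only regions and 405 bp in the remaining ones. In the ninth decile 100 brain-only regions had a median of 633 bp, against 741 bp in the remaining ones.

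**Figure D2:**
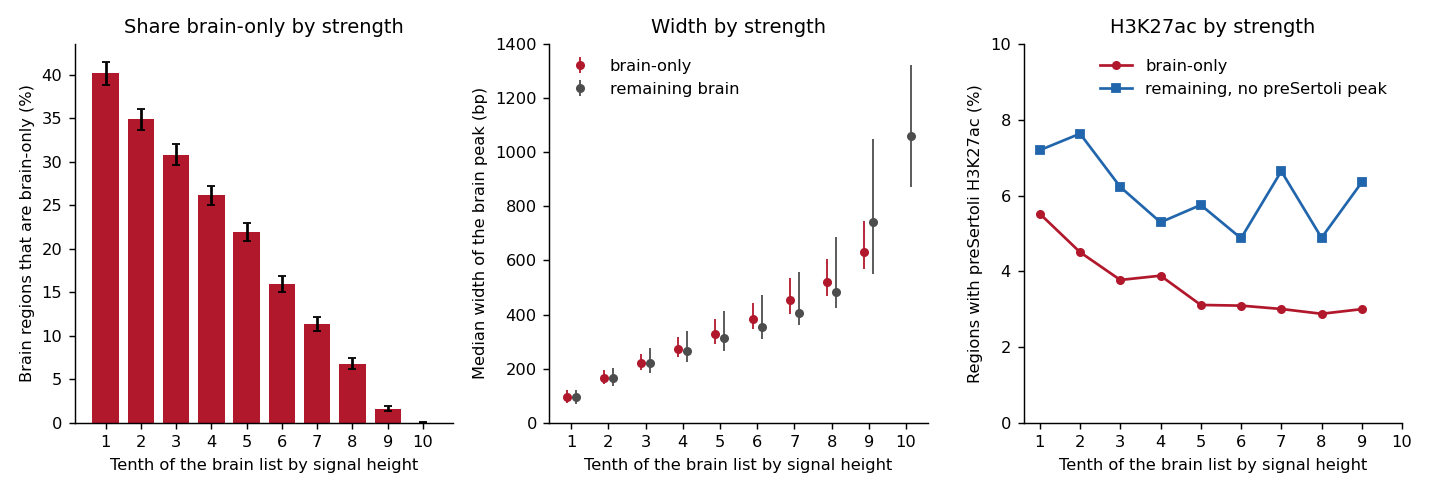
Share of brain regions that are brain-only with Wilson 95% intervals (left), median width of the brain peak with quartiles as bars (middle), and share overlapping preSertoli H3K27ac (right), each by decile of the brain list from weakest (1) to strongest (10). The brain-only share falls from 40.2% to none, median widths nearly coincide up to the third decile, and brain-only regions have the lower H3K27ac share in each decile shown. The blue line leaves out the top decile, which has 6 regions.

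The strongest brain-only region lay on chromosome 11 from 104051198 to 104051941 (mm9), 744 bp wide. Its signal height was 0.287 with a −log10 p of 9.92, rank 7019 in the brain list. The next were chromosome 2 from 90663845 to 90664437 with a signal height of 0.266 and chromosome 16 from 10005555 to 10006127 with 0.260. A region on chromosome 4 from 127819398 to 127820009 had a signal height of 0.252, and 1 on chromosome 15 from 83867410 to 83867986 had 0.245. These regions were far from the top of the list in height. They were picked as the highest brain-only regions, so they lie above the upper quartile of that class (0.0665) by selection.

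The list of 10 was completed by chromosome 1 from 94775724 to 94776524 (signal height 0.243) and chromosome 7 from 139403725 to 139404626 (0.241, at 902 bp the widest of the 10). It ended with chromosome 5 from 102552218 to 102552857 (0.239), chromosome 5 from 115203303 to 115203837 (0.237) and chromosome 7 from 30178200 to 30178885 (0.234). They were spread over 8 chromosomes, and 0 of the 10 overlapped a preSertoli H3K27ac domain, against 3 of the 100 strongest and 4.04% of all brain-only regions. Most were set apart from other lists, with a median gap of 3021 bp to the nearest region of another list and up to 22037 bp for the region on chromosome 2. The last of them, on chromosome 7 at 30178200, lay 15 bp from a region of another list, so its place among brain-only regions rests on the rule for joining peaks. Counted with themselves, their windows of 100 kb held 1 to 5 brain-only regions.

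The 3 widest brain-only regions were on chromosome 15 from 87030539 to 87031969 (1431 bp, signal height 0.219), chromosome 15 from 99356215 to 99357545 (1331 bp, 0.132) and chromosome 12 from 78628949 to 78630188 (1240 bp, 0.215). The first lay in a window with 3 brain-only and 0 remaining brain regions. By comparison, the strongest remaining brain region spanned 6172 bp on chromosome 17 from 39979780 to 39985951, with a signal height of 1.16. The next were on chromosome 11 from 108872828 to 108873595 (0.809) and chromosome 12 from 114067005 to 114068225 (0.761). All 3 had a peak in each of the 7 other lists.

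Counted in windows of 100 kb, brain-only regions were spread widely, with a small part in dense groups. They occurred in 6256 of 15192 windows with a brain region (41.2%), and 3685 of these windows held a single brain-only region. Windows with 5 or more numbered 243 and held 1461 brain-only regions (13.3% of them). Windows with 5 or more remaining brain regions numbered 3675 and held 55.6% of the remaining ones. The 2 shares are not on an equal footing, since windows with a merged region held a mean of 0.523 brain-only and 2.32 remaining brain regions. The variance of the counts over their mean was 2.09 for brain-only and 3.47 for remaining brain regions. This ratio too depends on the mean count, so it does not show which class is the more grouped. The 243 windows, chosen for their brain-only count, also held 1224 remaining brain regions (2.51% of those). In 177 of the 243 (72.8%) no other list had 5 or more regions of its own. The same share over all windows was not computed, so this count does not set the 243 windows apart. ES cells had that many in 30 of them (12.3%), E15.5 preSertoli cells in 14, liver in 11, heart in 6 and kidney in 1. Among all 21006 windows with a merged region, ES cells had 2040 such windows and kidney 230.

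**Figure D3:**
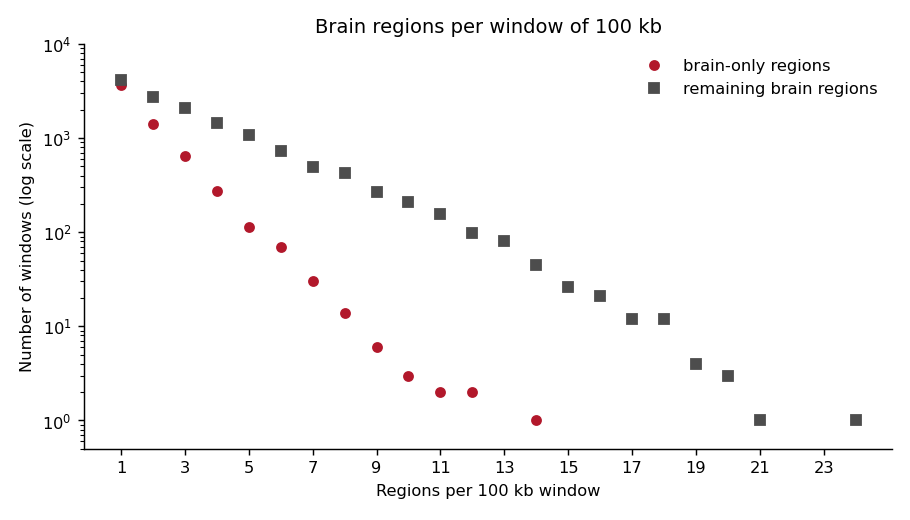
Number of windows of 100 kb (log scale) against the number of regions per window, for brain-only regions (red circles) and remaining brain regions (dark squares). Brain-only counts reach 14 and remaining brain regions 24 per window.

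The densest window was on chromosome 8 from 96400001 to 96500000 and held 14 brain-only and 5 remaining brain regions. Its brain-only regions were weak, with a median percentile of 11.6 and none above the median of the brain list. A window on chromosome 14 from 64300001 to 64400000 held 12 brain-only and 2 remaining brain regions, with a median percentile of 37.1 for the brain-only ones. Windows on chromosome 9 followed, with 12 brain-only and 3 remaining brain regions from 103400001 to 103500000, 11 and 1 from 45400001 to 45500000, and 11 and 5 from 64400001 to 64500000.

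The 3 windows on chromosome 9 differed in strength. The brain-only regions had median percentiles of 15.52 in the window from 103400001, 34.4 in that from 45400001 and 45.7 in that from 64400001. In the second of these, 4 of 11 lay above the median of the brain list and the highest stood at the 80.3rd percentile. In the third, 5 of 11 did, and the highest stood at the 84.7th percentile with a signal height of 0.220. None of the brain-only regions of these 5 windows overlapped a preSertoli H3K27ac domain, where the share over all brain-only regions was 4.04%. The windows were not empty in other cells. The window on chromosome 8 held 11 regions without a brain peak, and those on chromosome 9 held 10, 17 and 20. In the window from 45400001 the brain-only regions spanned 71885 bp, while skin fibroblast, ES cell and preSertoli regions lay in part among them and in part beyond.

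**Figure D4:**
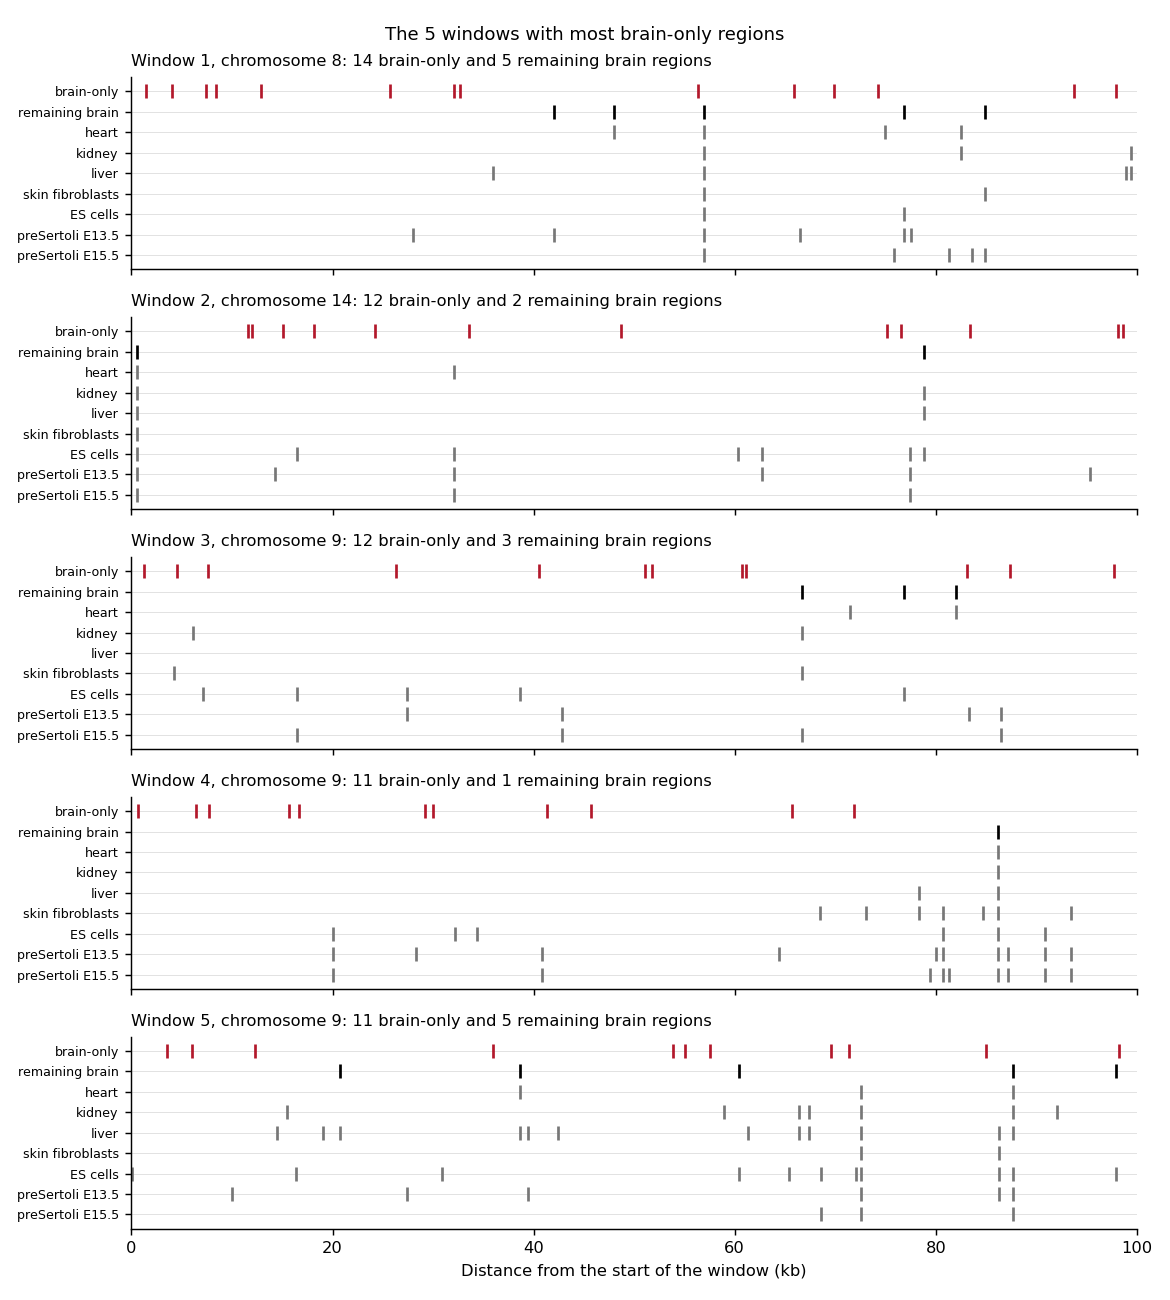
Positions of merged regions in the 5 windows with most brain-only regions, as kb from the start of each window, with 1 row per list; ticks mark the middle of each region, in red for brain-only and in black for remaining brain regions. The 14, 12, 12, 11 and 11 brain-only regions run through most of each window, among regions of other lists.

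Brain-only regions differed little in strength with the number of brain-only regions in their window. The median percentile was 25.7 (interval 24.6 to 26.7) for regions alone in their window and 27.5 (26.0 to 28.6), 29.3 (27.8 to 31.0) and 27.5 (25.7 to 28.9) in windows with 2, 3 and 4. It was 28.9 (27.0 to 30.5) in windows with 5 or more and 27.2 (22.4 to 30.9) in the 28 of these with 8 or more. The intervals for 2, for 4 and for 8 or more overlapped that of lone regions, whereas those for 3 and for 5 or more did not. The shares above the median of the brain list were 16.6%, 20.7%, 21.7%, 21.9% and 22.6% for 1, 2, 3, 4 and 5 or more, and 20.3% for 8 or more. Median widths were 222 bp (216 to 228) for lone regions, 263 bp (254 to 274) in windows with 5 or more and 245.5 bp (221 to 281) in windows with 8 or more. Remaining brain regions were also more numerous there, with a mean of 3.09 per window with 1 brain-only region and 5.04 per window with 5 or more.

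Brain-only regions lay farther from regions of other lists than remaining brain regions did. The median gap to the nearest region of another list was 2259 bp (interval 2170 to 2346), against 1158 bp (1135 to 1181) between a remaining brain region and the nearest further region of another list. Within 10000 bp, 82.4% of brain-only and 91.4% of remaining brain regions had such a neighbour. The rule selects brain-only regions for having no peak of another list in contact, so part of this difference may be built in. Gaps also run from the edges of merged regions, with median widths of 239 bp in brain-only and 620 bp in remaining brain regions. The nearest other brain-only region was 23720.5 bp away at the median, and the nearest remaining brain region 10014 bp. From remaining brain regions the medians were 56219 bp to the nearest brain-only region and 7298 bp to the nearest other remaining one. Remaining brain regions are the more numerous (48758 against 10994), which shortens gaps to them.

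Some brain-only regions were near the edge of the rule. A region of another list lay within 200 bp of 997 of them (9.07%). These had a median percentile of 18.7 and a median width of 211 bp. On the other side, 101 of the 5294 regions shared with 1 other list met it over less than 10% of the brain peak, with a median percentile of 33.2 and a median width of 309 bp. Among all 5294, the median overlap was 79.1% of the brain peak.

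The remaining brain regions were shared most often with heart (77.2%), then kidney (74.8%), ES cells (73.7%), E13.5 preSertoli cells (72.7%), E15.5 preSertoli cells (72.2%), liver (66.8%) and skin fibroblasts (63.8%). Each share also depends on the length of the other list, 62218 peaks in fibroblasts and 96536 in ES cells. Regions that only 1 other list kept from being brain-only numbered 1405 for heart, 1197 for ES cells and 776 for skin fibroblasts, but 494 for kidney and 477 for liver. Heart thus stood out among the adult tissues, with a shorter list (70532 peaks) than kidney (72370) or liver (72883). No single list held more than 2.35% of the brain regions in this way.

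Brain-only regions seldom carried H3K27ac in preSertoli cells. H3K27ac, acetylation of histone H3 that marks active enhancers and promoters, was listed as 28586 domains of E13.5 preSertoli cells, so the overlap describes the same DNA in another cell type and says nothing on acetylation in brain. A domain overlapped 444 brain-only regions (4.04%, interval 3.69 to 4.42), against 31.8% of the remaining brain regions and a background of 26.7% over all brain regions. Remaining brain regions without a preSertoli peak are the closer comparison. They stood at 6.21% (617 of 9933; 5.75 to 6.70), and those with a preSertoli peak at 38.3%. The lack of a preSertoli peak is part of the rule, so the last difference is built in. Overlap was scored over the whole merged region, whose median width was 239 bp in brain-only and 620 bp in all remaining brain regions. A wider region has more bases that a domain can touch, and the shares at equal width were not tested.

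In brain-only regions the H3K27ac share was lower among stronger peaks. It was 5.52% in the lowest decile of the brain list (121 of 2192), 3.11% in the fifth (41 of 1318) and 2.88% in the eighth (12 of 417). It was 3.02% above the median of the brain list (interval 2.38 to 3.82) and 4.29% at or below it (3.89 to 4.74). Remaining brain regions without a preSertoli peak were higher than brain-only regions in each of the first 9 deciles, between 4.87% and 7.63%. These deciles match the strength of the brain peak and not the width of the merged region. Remaining brain regions with a preSertoli peak reached 51.1% in the ninth decile and 92.3% in the top decile.

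By chromosome, the brain-only share of brain regions was lowest on X, at 8.94% (91 of 1018; interval 7.34 to 10.8). On the autosomes together it was 18.6% (18.3 to 18.9). Single autosomes ran from 12.7% on chromosome 19 (11.2 to 14.4) to 21.6% on chromosomes 9 and 18. Chromosome 11 stood at 15.1% and chromosome 7 at 16.4%. On X the share was lower both below and above the median of the brain list. Below it the share was 17.7% on X (14.6 to 21.4) and 30.8% on the autosomes (30.3 to 31.3). Above it the share was 0.938% on X (5 of 533; 0.401 to 2.18) and 7.17% on the autosomes (6.88 to 7.46). The 91 brain-only regions of X had a median percentile of 22.6 and a median width of 177 bp, with no interval computed. The lowest medians on an autosome were 25.1 and 230 bp.

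Other lists showed a lower share on X too, though not all. Regions found in 1 list alone made up 11.8% of X regions in heart, against 19.2% on the autosomes. In kidney the values were 10.8% on X and 17.0% on the autosomes. Liver had 26.2% on X and 26.5% on the autosomes with overlapping intervals, and so did ES cells, at 36.4% on X and 38.9% on the autosomes. The interval of brain on X overlapped those of heart, kidney and E15.5 preSertoli cells.

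**Figure D5:**
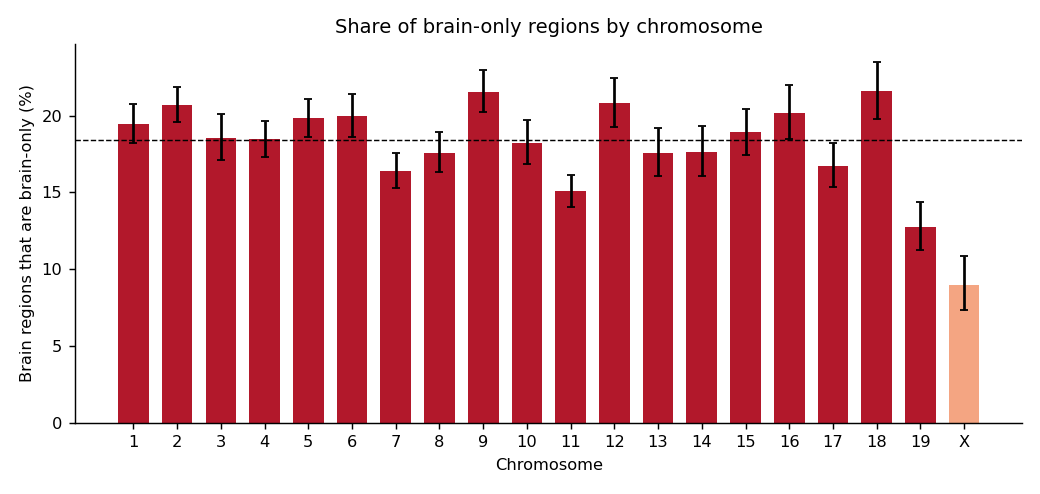
Percent of brain regions on each chromosome that are brain-only, with Wilson 95% intervals as bars; the dashed line is the share over all chromosomes (18.4%). Chromosome X (light bar) is lowest at 8.94%, and chromosome 19 is the lowest autosome at 12.7%.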

How the data were processed

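The authors' deposited DNase lists hold, per peak and without a header, a score (highest 1000), a signal height and a −log10 p from 1.3 to 16, as read from the values. For DNase reads the submitters' processing notes name the build mm9 and SAMtools, bedtools and BWA 0.6.1-r104. The sources used here do not give the peak caller or its threshold. The H3K27ac list deposited by the authors, made with SICER per the submitters' processing notes, is 1 list for 2 libraries, and pooling is not stated. The planned gene lists and motifs were not analysed, since no mm9 genome or annotation was used.

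Peaks were merged in Python 3.11.15 (pandas 2.3.3), and the number of regions was checked with bedtools 2.31.1. Overlap meant at least 1 bp, and for H3K27ac it was scored over the whole merged region. A region took its strongest brain peak, percentiles were midranks, and regions fell into windows of 100 kb by their middle. Positions are 1-based. Shares have Wilson intervals and medians exact binomial intervals (scipy 1.17.1), both at 95%. The functions recovered known answers on simulated lists. Named were the 10 strongest and 3 widest brain-only regions, the 5 densest windows, the 3 longest runs and the 3 strongest remaining regions. The members, rules and lists were chosen with earlier results of these data known.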

Additional observations from a re-analysis of the deposited data

How the results depend on the processing

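The difference between brain-only and remaining brain regions was recomputed under 9 alternatives for percentile, 8 for width and 7 for H3K27ac, and none changed its sign. Brain-only regions stayed weaker (-34.9 to -26.6 percentile points), narrower (-381 to -137 bp) and less often in preSertoli H3K27ac domains (-40.6 to -26.1 points). The H3K27ac difference is against all remaining brain regions, and is in part built in wherever the preSertoli lists are used. The closer comparison, with remaining brain regions that lack a preSertoli peak, was not recomputed. Their number and density depended on the lists. With peaks above the median of each list there were 3779 brain-only regions (12.2% of brain regions), the differences were -33.9 percentile points, -155 bp and -40.6 points of H3K27ac, and 0.953% lay in windows with 5 or more. With a −log10 p of at least 2 the values were 5579 regions, 14.8%, -33.7, -137 bp, -36.4 and 1.86%. Against heart, kidney and liver alone they were 18609 regions, 29.9%, -34.9, -174 bp and 27.0% in such windows. Without the preSertoli lists the share was 21.4%, with -32.4 percentile points, -26.1 points of H3K27ac and 17.9% in such windows. With equal numbers of peaks (62218) the share was 21.2%, with -32.7 points, -169 bp, -28.6 points and 15.4%. Requiring no other list within 1000 bp gave 12.6%, -26.6 points, -144 bp, -28.4 points and 6.59%. Joining peaks up to 200 bp apart gave 17.1% and 10.4% in such windows. The width of the merged region gave -381 bp. Windows shifted by 50 kb held 14.0% in dense windows, and windows of 200 kb with 10 or more held 4.91%. Fewer brain-only regions leave fewer dense windows by construction. Score and −log10 p follow the order of signal height (Spearman rho 0.999 and 1.00 over brain peaks), so ranking by them is no separate check. The highest count in a window was 6 with peaks above each median and 7 with a −log10 p of at least 2, against 14. With 1 library per cell type and unknown read numbers, the effect of depth could not be measured. No paired analysis was possible because each DNase group has 1 library.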

Other observations

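Read along the genome, most brain-only regions stood alone between regions of other lists. They were 10994 of 237612 merged regions, and so small a part stands mostly alone even when scattered at random. How many would then stand alone was not computed, so the count below does not show how scattered they are. Of 10994, 7955 (72.4%) had a region of another list, or the end of a chromosome, on either side before the next brain-only region, and 3039 (27.6%) lay in unbroken runs of at least 2. That share was 23.8% in heart, 23.7% in kidney, 22.1% in skin fibroblasts, 38.3% in liver, 44.7% in ES cells, 19.0% in E13.5 and 18.8% in E15.5 preSertoli cells for regions of their own. Brain had 37 runs of 5 or more, against 13 in heart, 9 in kidney, 99 in liver, 24 in fibroblasts, 298 in ES cells, 7 in E13.5 and 6 in E15.5 preSertoli cells. The lists differ in how many regions of their own they hold, from 10994 in brain to 36249 in ES cells. The longest brain-only run held 8 regions, against 25 in liver, 19 in ES cells and 15 in fibroblasts. It covered 245710 bp on chromosome 2 from 141444038 to 141689747, with percentiles from 3.23 to 66.3. The next held 7 regions each, on chromosome 3 from 123531841 to 123680471 and on chromosome 13 from 19114274 to 19198631. None of their regions overlapped a preSertoli H3K27ac domain, where the share over all brain-only regions was 4.04%.

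In 270 windows of 100 kb brain-only regions were the only merged regions of any list, 351 regions in all and at most 7 in a window. Over 21006 windows with a merged region, the counts of brain-only and remaining brain regions had a Spearman rho of 0.302. Against regions found in 1 other list alone, rho ran from 0.0761 in liver to 0.199 in E15.5 preSertoli cells. The first pair shares the brain library. These values are descriptions of windows and not tests.

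Regions shared by brain with 1 other list alone had these strengths in both lists. With skin fibroblasts the median percentile was 25.3 in brain and 39.6 in fibroblasts (776 regions), with ES cells 27.8 in brain and 38.0 in ES cells (1197 regions), with liver 29.1 in brain and 37.3 in liver (477 regions), and with heart 30.0 in brain and 33.2 in heart (1405 regions). It was 30.5 in brain and 29.5 in E13.5 preSertoli cells (576 regions), 28.7 in brain and 25.2 in kidney (494 regions), and 25.1 in brain and 20.9 in E15.5 preSertoli cells (369 regions).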
